A study of Mus musculus with 2 samples.

Results

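The platelet-derived growth factor (PDGF) ligands Pdgfa, Pdgfb, Pdgfc and Pdgfd and their receptors Pdgfra and Pdgfrb were followed through single cells of mouse pancreatic tumours. These 6 genes were chosen by symbol among the 32285 genes of the matrices, and all 6 were found once in each library. Tumours came from KPPC mice, a genetically engineered model of pancreatic ductal cancer whose alleles the labels do not spell out. The mice were 6 weeks old and were given vehicle or takinib, an inhibitor of the kinase TAK1, at 50 mg/kg for 14 days. Each treatment is represented by 1 library of digested tumour tissue, and the number of mice behind a library is not stated. As cell line the labels name pancreas, and as cell type tumor. With 1 library a group no test between treatments was possible, so levels and ratios are given as descriptions of these libraries. Intervals are 95% intervals, exact Poisson for a level, exact binomial for a share and conditional binomial for a ratio. They cover counting error only, and limits for counts of 0 do the same.

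PDGF ligands are secreted dimers that bind receptor tyrosine kinases on neighbouring cells. PDGF-A and PDGF-C act mainly through the alpha receptor, PDGF-B binds both receptors, and PDGF-D acts mainly through the beta receptor. PDGF-C and PDGF-D are released with a CUB domain that proteases such as tissue plasminogen activator and urokinase remove before they can signal. In most tissues endothelial PDGF-B recruits pericytes carrying the beta receptor, and the alpha receptor marks fibroblasts.

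The vehicle library left 9558 cells and 42000538 UMIs (molecules counted) after filters, and the takinib library 25183 cells and 119726977 UMIs. Of the barcodes past the filters, 400 occurred in both libraries. Vehicle cells came from mice of both sexes, with 3087 cells showing Y-linked UMIs without Xist, 1075 showing Xist alone and 168 showing both, whereas no takinib cell held a Y-linked UMI. Cell types were assigned from marker genes that did not include the 6 PDGF genes. The vehicle library held 584 perivascular-like, 560 fibroblast-like, 711 endothelial-like, 1627 epithelial-like and 4937 macrophage-like cells. The takinib library held 14, 100, 103, 1855 and 7041 of these, and 11549 neutrophil-like cells against 261 in vehicle. The neutrophil transcripts S100a8 and S100a9 together stood at 54.8 CPM (UMIs scaled to a fixed total of the class in its library) in vehicle fibroblast-like cells and 7509 in takinib ones. The same sum was 93.1 and 9715 CPM in epithelial-like cells, and the part of such carried-over RNA in the differences below was not tested. An unnamed cluster led by Dcn, Serpinb2 and Timp1, with 136 vehicle and 246 takinib cells, scored highest for mesothelial markers while fibroblast genes were among its leading genes, and it is described apart.

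Pdgfa encodes the A chain, and its gene (ENSMUSG00000025856) lies on the minus strand of chromosome 5 at 138976014 to 138997370 in GRCm38. It was highest in perivascular-like cells, at 587 CPM in vehicle (1306 UMIs, interval 555 to 619) and 613 CPM in takinib (46 UMIs in 14 cells, interval 449 to 818). Vehicle epithelial-like cells followed at 131 CPM, then fibroblast-like cells at 81.2 and endothelial-like cells at 74.8, the last pair with overlapping intervals. Macrophage-like cells had 40.4 CPM, and T-like and B-like cells had 13.3 and 10.7. In takinib the epithelial-like level was 58.0 CPM, the endothelial-like level 42.7, the macrophage-like level 22.7 and the fibroblast-like level 12.9, with overlapping intervals for the first pair and for the last. The small acinar-like group (18 and 20 cells) had 103 and 121 CPM, with wide intervals (51.4 to 184 and 76.0 to 184).

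Pdgfb, the gene of the B chain (ENSMUSG00000000489, chromosome 15, 79995874 to 80014977, minus strand), was highest in endothelial-like cells. It stood there at 226 CPM in vehicle (480 UMIs, interval 206 to 247) and at 147 CPM in takinib (103 UMIs, interval 120 to 178). Within the class, the blood-vessel cluster led by Plvap had 253 CPM in vehicle and 198 in takinib, while the cluster led by Mmrn1 and other lymphatic genes had 80.9 in vehicle. Epithelial-like cells came next with 80.6 CPM in vehicle and 26.2 in takinib. Macrophage-like cells had 29.8 and 8.44 CPM. Fibroblast-like cells held 9 Pdgfb UMIs in vehicle (4.18 CPM) and 0 of 542432 UMIs in takinib, which allows a level of up to 5.53 CPM.

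Pdgfc encodes the C chain (ENSMUSG00000028019, chromosome 3, 81036416 to 81214040, plus strand) and was shared by epithelial-like and fibroblast-like cells. Vehicle levels were 53.6 CPM (interval 49.3 to 58.2) in epithelial-like and 48.3 (39.5 to 58.5) in fibroblast-like cells. Takinib levels were 35.9 and 40.6 CPM in the same order, again with overlapping intervals. Both classes stood above macrophage-like cells, at 9.08 and 8.68 CPM, and endothelial-like cells, at 6.59 and 1.42 CPM.

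Pdgfd, the gene of the D chain (ENSMUSG00000032006, chromosome 9, 6168584 to 6378850, plus strand), was sparse, with 154 UMIs in all kept vehicle cells and 309 in takinib. In vehicle it was highest in endothelial-like cells at 22.1 CPM (47 UMIs), followed by fibroblast-like cells at 11.1 (24 UMIs) and epithelial-like cells at 6.29 (68 UMIs). In takinib the endothelial-like level was 14.2 CPM on 10 UMIs, next to 12.7 in epithelial-like cells on 269 UMIs. Neighbours in this order had overlapping intervals in both libraries. Macrophage-like cells were near 0, with 5 UMIs among 21146608 in vehicle and 1 among 47371421 in takinib.

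Pdgfra, the alpha receptor gene (ENSMUSG00000029231, chromosome 5, 75152292 to 75198215, plus strand), was concentrated in fibroblast-like cells and in the Dcn-led cluster. Fibroblast-like cells had 214 CPM in vehicle (460 UMIs, interval 194 to 234) and 354 in takinib (192 UMIs, interval 306 to 408). The Dcn-led cluster had 287 CPM in vehicle (211 UMIs, interval 249.7 to 329) and 259 in takinib (823 UMIs, interval 242 to 278). Every other named class of at least 50 cells stood at 6.69 CPM or lower in both libraries. Of fibroblast-like cells, 47.1% in vehicle and 68.0% in takinib held a Pdgfra UMI, and 21.6% and 33.0% did when each cell was thinned to 1000 UMIs. In macrophage-like cells, which should lack the receptor, the shares were 0.446% and 0.426% at median depths of 3847 and 5871 UMIs, against 3152.5 and 3523 in fibroblast-like cells.

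Pdgfrb, the beta receptor gene (ENSMUSG00000024620, chromosome 18, 61045150 to 61085061, plus strand), was highest in perivascular-like cells, the pericytes and smooth muscle around vessels. The level there was 1202 CPM in vehicle (2676 UMIs, interval 1157 to 1248) and 720.1 in takinib (54 UMIs, interval 541 to 939.6). Fibroblast-like cells had 267 and 125 CPM, and the Dcn-led cluster 34.0 and 55.5. A Pdgfrb UMI was found in 92.6% of vehicle perivascular-like cells (70.7% after thinning), 52.0% of vehicle fibroblast-like cells (24.8%) and 0.729% of vehicle macrophage-like cells (0.223%). In vehicle barcodes of 1 to 99 UMIs, which mostly hold free RNA, Pdgfrb stood at 55.3 CPM and Pdgfa at 56.8. Such barcodes do not occur in the takinib matrix.

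**Figure D1:**
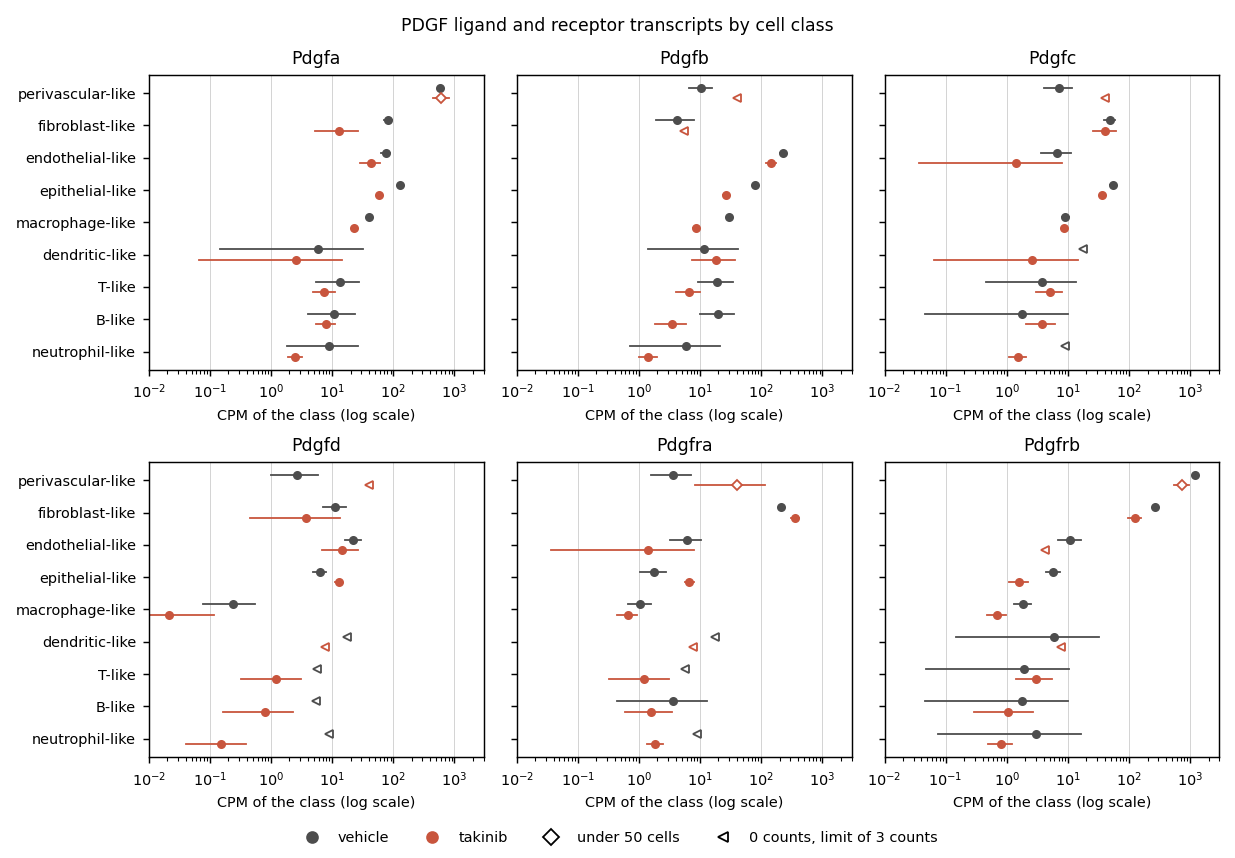
Level of each PDGF gene (CPM of the class's summed counts, log scale) in 9 cell classes of the vehicle (dark) and takinib (red) libraries, with exact 95% Poisson intervals, which cover counting error only. Open diamonds are classes of under 50 cells and open triangles the limit that a count of 0 allows; Pdgfrb and Pdgfa peak in perivascular-like cells, Pdgfra in fibroblast-like cells and Pdgfb in endothelial-like cells.

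The beta receptor and the A chain were detected in the same vehicle cells. Of the 445 perivascular-like cells with a Pdgfa UMI, 420 also held a Pdgfrb UMI (94.4%), against 87.1% of the perivascular-like cells without one. Cells with Pdgfa were deeper, at a median of 3471 UMIs against 2177. The ligand-receptor pair Pdgfb and Pdgfrb was by contrast divided between neighbouring classes, since endothelial-like cells had 226 CPM of Pdgfb and 10.8 of Pdgfrb in vehicle. Both receptors overlapped in part within fibroblast-like cells. In vehicle, 150 of 264 cells with a Pdgfra UMI had Pdgfrb as well (56.8%), against 47.6% of the others, and in takinib 30 of 68 did (44.1%), against 34.4%. Median depth was again greater in the Pdgfra-positive cells, at 3676 against 2780 UMIs in vehicle and 3849 against 2710 in takinib.

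The share of a gene's UMIs that a class held shows where its RNA came from in each library. Perivascular-like cells supplied 5.30% of vehicle UMIs, 78.4% of vehicle Pdgfrb and 32.6% of vehicle Pdgfa. In takinib, where they supplied 0.0626% of UMIs, they held 13.2% of Pdgfrb and 1.69% of Pdgfa. Fibroblast-like cells held 62.6% of Pdgfra in vehicle and 15.2% in takinib, while the unnamed clusters held 28.7% and 65.6%, with 211 of 211 and 823 of 828 of these UMIs in the Dcn-led one. Endothelial-like cells held 23.3% of Pdgfb in vehicle and 8.79% in takinib. Epithelial-like cells were the main holders of Pdgfc, with 62.3% and 55.6%, and of takinib Pdgfd, with 44.2% in vehicle and 87.1% in takinib. They also held 35.3% of Pdgfa and 42.2% of Pdgfb in vehicle, and 45.3% and 47.4% in takinib.

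**Figure D2:**
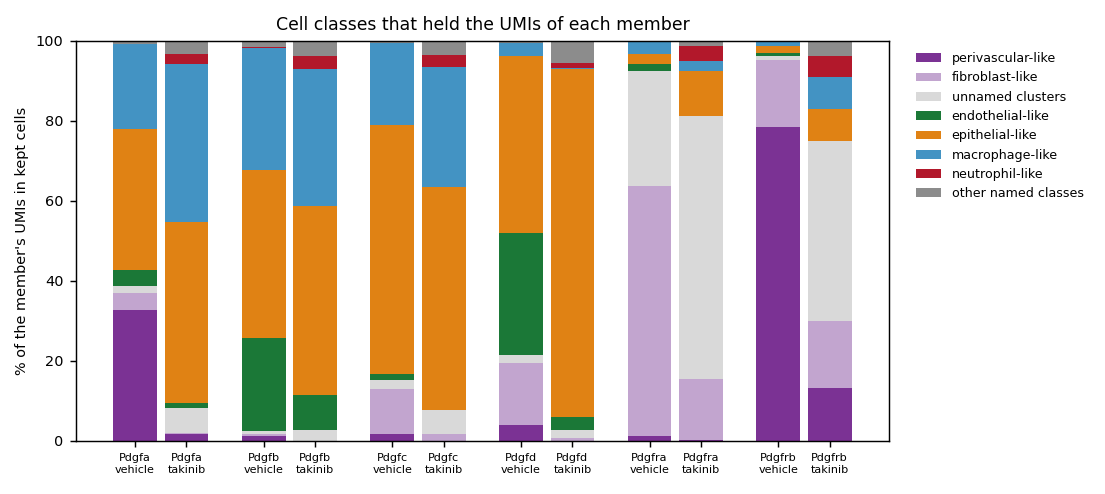
Percent of each PDGF gene's UMIs in kept cells (bar height) that fell in each cell class (colours), with vehicle and takinib side by side for each gene. The perivascular-like block of vehicle Pdgfrb, 78.4%, is 13.2% in takinib, and unnamed clusters hold 65.6% of takinib Pdgfra.

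Summed over all kept cells, every PDGF gene was lower in the takinib library, and 3 of the 6 were lower by at least 2-fold with at least 50 UMIs in a library. Of the 15600 genes compared in the same way, 17.7% were lower by that much and 8.25% were higher, and the median gene had a log2 ratio of -0.32. Pdgfrb went from 81.3 to 3.42 CPM, a log2 ratio of takinib over vehicle of -4.57 (interval -4.72 to -4.42). Pdgfb went from 49.1 to 9.79 CPM (-2.33, interval -2.43 to -2.22) and Pdgfa from 95.4 to 22.7 CPM (-2.07, interval -2.14 to -2.001). The other genes differed by less than 2-fold, Pdgfc from 22.2 to 11.4 CPM (-0.96), Pdgfra from 17.5 to 10.5 (-0.73) and Pdgfd from 3.67 to 2.58 (-0.51). A whole-library value of this kind moves with the mix of cells as well as with the level in each cell. With the takinib level of each class weighted by the vehicle class shares of UMIs, the log2 ratio was -0.82 for Pdgfrb, -0.60 for Pdgfa, -1.39 for Pdgfb and -0.45 for Pdgfc. On the same weighting it was 0.21 for Pdgfd and 0.55 for Pdgfra. The takinib perivascular-like level used in it rests on 14 cells. When vehicle levels were weighted by the takinib class shares instead, the ratio was -0.90 for Pdgfrb, -1.05 for Pdgfa and -1.66 for Pdgfb. It was then -0.35 for Pdgfc, 0.73 for Pdgfd and -0.29 for Pdgfra, so the direction of Pdgfra turned with the weighting. Without perivascular-like cells Pdgfrb stood at 18.6 CPM in vehicle and 2.97 in takinib (-2.64). Fewer cells captured and fewer cells in the tumour cannot be told apart here.

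Within fibroblast-like cells the receptors and the A chain diverged. Alpha receptor RNA was higher in takinib, from 214 to 354 CPM (log2 ratio 0.73, interval 0.48 to 0.97), and beta receptor RNA was lower, from 267 to 125 CPM (-1.09, interval -1.48 to -0.73). Pdgfa was lower still, at 175 UMIs (81.2 CPM) against 7 UMIs (12.9 CPM), a log2 ratio of -2.65 (interval -3.99 to -1.58). Pdgfc was about level, at 48.3 and 40.6 CPM (-0.25, interval -0.99 to 0.42). Pdgfd had 24 UMIs in vehicle and 2 in takinib, too few to call. Pdgfrb and Pdgfa were thus 2 members called lower by at least 2-fold and none was called higher, against 10.3% and 2.82% of the 6021 genes compared in the class. Perivascular markers summed to 195 CPM in vehicle and 144 in takinib fibroblast-like cells, and 7 of 8 were above 0 in takinib. Their part in the Pdgfrb difference was not tested.

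The Dcn-led cluster gave another picture. Pdgfra was close in the libraries (-0.15, interval -0.37 to 0.08), Pdgfrb was higher in takinib (0.71, interval 0.10 to 1.37) and Pdgfa stood at 61.2 and 45.7 CPM (-0.42, interval -0.91 to 0.09). No member with at least 50 UMIs in a library passed 2-fold there, against 8.63% higher and 6.38% lower among 7037 genes. Under that count, Pdgfb had -3.43 on 10 and 4 UMIs (interval -5.56 to -1.64). Pdgfd had -2.11 on 3 and 3 UMIs (interval -5.01 to 0.79). In the union of this cluster with the fibroblast-like cells, the Pdgfra ratio was 0.23, the Pdgfrb ratio -1.66, the Pdgfa ratio -0.90 and the Pdgfc ratio -1.34. The takinib excess of Pdgfra and the size of the Pdgfa difference in fibroblast-like cells therefore depended on which cells were counted in the class.

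Endothelial-like cells showed lower PDGF ligand levels in takinib by less than 2-fold. Pdgfb had a log2 ratio of -0.62 (interval -0.94 to -0.31) and Pdgfa one of -0.81 (74.8 to 42.7 CPM, interval -1.42 to -0.24). Pdgfd had -0.64 with an interval from -1.79 to 0.37. The beta receptor had 23 UMIs in 9 of 711 vehicle cells and 0 of 702687 UMIs in takinib. With the limit of 3 counts for that 0, its level was 2.53-fold lower. The interval of the log2 ratio reached up to -0.93. No member with at least 50 UMIs passed 2-fold, where 11.9% of 6483 genes were lower and 4.26% higher. Perivascular markers in the class summed to 839 CPM in vehicle and 518 in takinib, with 8 of 8 and 7 of 8 above 0, and their part in the Pdgfrb difference was not tested. Against the 69 vehicle cells with Xist alone, Pdgfb was 0.30 higher and Pdgfa 0.52 higher in takinib on the log2 scale. Those vehicle cells held 20 Pdgfb and 5 Pdgfa UMIs, and both intervals hold 0 (-0.40 to 1.07 and -0.86 to 2.24). With all cells thinned to 1000 UMIs the Pdgfa ratio was 0.39 and the Pdgfb ratio -0.28. The direction of Pdgfa thus turned under both alternatives and that of Pdgfb under the first.

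Epithelial-like cells carried the most divided pattern, with Pdgfa, Pdgfb and Pdgfrb lower and Pdgfd and Pdgfra higher in takinib. Pdgfa went from 131 to 58.0 CPM (log2 ratio -1.17, interval -1.28 to -1.06) and Pdgfb from 80.6 to 26.2 (-1.62, interval -1.78 to -1.47). Pdgfc was 53.6 and 35.9 CPM (-0.58). Pdgfrb was low in both, at 5.73 and 1.56 CPM (-1.88), where perivascular markers summed to 81.3 and 17.2 CPM. Pdgfd went the other way, from 6.29 to 12.7 CPM (1.01, interval 0.62 to 1.42), as did Pdgfra, from 1.76 to 6.69 CPM (1.93, interval 1.23 to 2.70). By the 2-fold rule 3 members were lower and 2 higher, where 7.49% and 7.36% of the 12405 genes compared were. With the 6% of cells with the highest doublet scores removed in each library, the cells were clustered anew. The takinib cells removed were the same as in the main setting, but only 63 of the 1933 Cdkn2a-led cells were then named epithelial-like. In the class so named the ratio was 0.34 for Pdgfa, -0.65 for Pdgfb, 0.70 for Pdgfc and 0.04 for Pdgfra. The Pdgfd ratio was 0.48 with cells thinned to 1000 UMIs and -0.18 against female vehicle cells, and thinning gave -0.19 for Pdgfrb.

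The class was built mainly from 2 clusters, and they differed. The cluster led by Cdkn2a, Hmga2 and Ppy (1101 vehicle and 832 takinib cells) had the higher ligand levels. Pdgfa stood there at 177 and 67.6 CPM (-1.39), Pdgfb at 111 and 39.4 (-1.49), Pdgfc at 70.2 and 36.4 (-0.95) and Pdgfd at 7.03 and 11.1 (0.66). Pdgfrb stood at 7.59 and 2.62 CPM (-1.53), and at a ratio of 0.40 after thinning. Perivascular markers in the cluster summed to 94.5 CPM in vehicle (8 of 8 above 0) and 14.9 in takinib (6 of 8). Marker sets of other cell types moved both ways. Islet markers stood at 22.4 and 712 CPM (6 of 7 and 7 of 7 above 0) and mesothelial markers at 234 and 467 (3 of 7 and 7 of 7). Fibroblast markers stood at 98.0 and 181 (10 of 10 and 9 of 10) and neutrophil markers at 120 and 14260. NK, erythroid and megakaryocyte sets were also higher in takinib. All remaining sets of other types were lower, among them macrophage markers at 1556 and 763 and acinar markers at 305 and 34.7. Their part in the PDGF differences of the cluster was not tested. Its 3 members lower and 1 higher by 2-fold compare with 7.17% lower and 7.78% higher among 11130 genes. The cluster led by Dmbt1 and the gastric genes Gkn3 and Tff2 (503 and 798 cells) had Pdgfa at 41.4 and 50.7 CPM (0.29, interval 0.02 to 0.57), Pdgfb at 22.4 and 14.0 (-0.68), Pdgfc at 22.7 and 37.5 (0.72, interval 0.37 to 1.09) and Pdgfd at 4.89 and 14.99 (1.62, interval 0.89 to 2.43). Among members with at least 50 UMIs in a library, only Pdgfd passed 2-fold in the Dmbt1-led cluster. There 6.70% of 10420 genes were higher and 3.26% lower by as much. Under that count, Pdgfra had -2.98 on 8 and 3 UMIs (interval -5.53 to -0.92). Pdgfrb had -2.24 on 8 and 5 UMIs (interval -4.20 to -0.45). The direction of Pdgfa and of Pdgfc was thus opposite in these clusters. So was that of Pdgfra, at 3.05 in the Cdkn2a-led cluster, though its Dmbt1-led value rests on few UMIs.

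**Figure D3:**
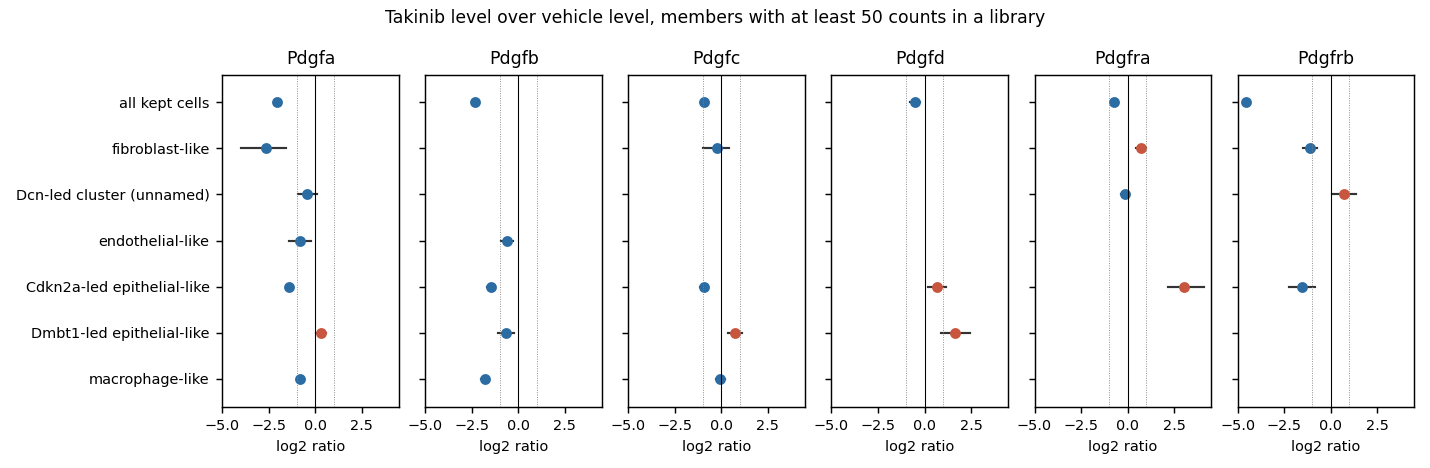
Log2 ratio of the takinib over the vehicle level of each PDGF gene, over all kept cells and in the main classes and clusters, with exact conditional 95% intervals (counting error only); dotted lines mark 2-fold, and points are shown where a library has at least 50 UMIs. Pdgfra is 0.73 in fibroblast-like cells and 3.05 in the Cdkn2a-led cluster but -0.15 in the Dcn-led cluster, and Pdgfb is below 0 in every panel row where it is shown.

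Alpha receptor RNA in the Cdkn2a-led cluster came from few cells. Vehicle cells of the cluster held 11 Pdgfra UMIs in 8 cells (1.55 CPM), and takinib cells held 132 UMIs in 29 of 832 cells (12.8 CPM), a log2 ratio of 3.05 (interval 2.16 to 4.09). A single takinib cell held 34 of the 132 UMIs and the next 21, leaving 98 without the first, and 18 of the 29 cells held at least 2. These cells were deeper than the rest of the cluster, with a median of 24903 UMIs against 8819. Cdkn2a stood at 1209 CPM in them and 669 in the other 803 cells, and 27 of the 29 had a Cdkn2a UMI. Epithelial markers summed to 3131 CPM against 9779, Epcam to 574 against 1702, and fibroblast markers to 1350 against 108. Vim, an intermediate filament gene of mesenchymal cells, stood at 2135 CPM against 502, and Col1a1 at 239 against 17.9. The fibroblast marker level of the 29 cells was well under the 36622 CPM of takinib fibroblast-like cells, and 11 of the 29 had a Col1a1 UMI. The part of doublets and carried-over RNA in these cells was not tested. With each library clustered on its own, 79 of the 1933 Cdkn2a-led cells were named fibroblast-like. Whether the 29 cells were among those was not examined. Epithelial-like cells as a whole then had a Pdgfra ratio of -1.24, so the higher takinib level depended on how cells were named. Thinning gave 1.82 in the Cdkn2a-led cluster.

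**Figure D4:**
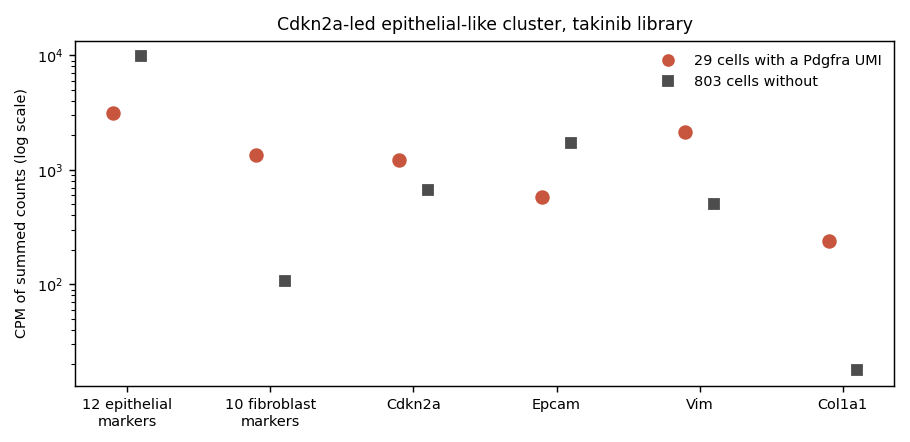
Summed level (CPM, log scale) of marker sets and single genes in the takinib cells of the Cdkn2a-led cluster with a Pdgfra UMI (29 cells, red circles) and without one (803 cells, dark squares). Epithelial markers are lower (3131 against 9779 CPM) and fibroblast markers and Vim higher in the 29 cells.

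Pdgfd and Pdgfra were the PDGF genes with a higher takinib level in epithelial-like cells, and the 250 bases before their annotated starts are shown for that reason, from RefSeq on GRCm38.p6, plus strand, 5′ to 3′. Capitals mark any of 4 motifs searched on both strands, the AP-1 site TGANTCA, the NF-kB consensus, the GC box GGGCGG and the TATA box TATAAA.
Pdgfd: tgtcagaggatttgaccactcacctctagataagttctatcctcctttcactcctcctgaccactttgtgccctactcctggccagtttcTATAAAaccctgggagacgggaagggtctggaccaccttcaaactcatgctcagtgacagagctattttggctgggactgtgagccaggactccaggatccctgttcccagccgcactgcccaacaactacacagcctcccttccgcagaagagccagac
Pdgfra: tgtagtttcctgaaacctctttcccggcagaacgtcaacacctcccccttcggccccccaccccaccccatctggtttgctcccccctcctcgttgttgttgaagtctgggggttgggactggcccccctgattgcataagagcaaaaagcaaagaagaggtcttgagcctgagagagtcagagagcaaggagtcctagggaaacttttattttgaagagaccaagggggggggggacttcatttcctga
The Pdgfd window (chr9:6168236-6168485) holds a single match, to the TATA box, from 160 to 155 bases before the start. None of these letters occurs in the Pdgfra window (chr5:75152001-75152250). Of 32851 windows of the same length in the table, 12.4% hold the TATA box, 32.7% the GC box, 6.75% the AP-1 site and 1.41% this NF-kB form. GC content was 53.6% and 54.4%, where the median window has 52.4%. A match describes the letters and is not a site, and the lack of one says only that these letters are not in this window.

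Macrophage-like cells had lower Pdgfb in takinib, from 29.8 to 8.44 CPM (log2 ratio -1.82, interval -2.003 to -1.64), and lower Pdgfa, from 40.4 to 22.7 CPM (-0.83, interval -0.97 to -0.70). Against female vehicle cells alone, at 23.9 CPM, the Pdgfa ratio was -0.08 (interval -0.45 to 0.32). Pdgfc stood at 9.08 and 8.68 CPM (-0.07, interval -0.32 to 0.19). Among members with at least 50 UMIs in a library, Pdgfb alone was past 2-fold, where 5.77% of 11892 genes were lower and 6.63% higher. Under that count, Pdgfrb had -1.40 on 39 and 33 UMIs (interval -2.12 to -0.70). Pdgfd had -3.49 on 5 and 1 UMIs (interval -9.05 to -0.33). Most vehicle cells of the class belonged to the cluster led by H2-Ab1 (3764 cells), and most takinib cells to clusters led by Lpl (2105), U90926 and Saa3 (2000) and Ccl8 (1519). Compared cluster by cluster, the Pdgfb ratio was -0.86 in the H2-Ab1-led, -0.85 in the Lpl-led and -0.95 in the Ccl8-led cells, in each case smaller than in the class. Pdgfa was 45.4 and 52.0 CPM in the H2-Ab1-led cells (0.20, interval -0.09 to 0.47). The Saa3-led cells, almost all from takinib, had 19.7 CPM of Pdgfa, 4.92 of Pdgfb and 1.23 of Pdgfc. Pdgfc differed most between macrophage clusters. It stood at 32.0 and 19.9 CPM in the Ccl8-led cells, which express Selenop and other genes of tissue-resident macrophages, and at 4.75 and 9.90 CPM in the Lpl-led cells (1.06, interval 0.33 to 1.87). Of 9942 genes in the Lpl-led cluster, 6.11% were higher by 2-fold and 1.59% lower.

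Lymphocytes and neutrophils held few PDGF UMIs. Pdgfb in T-like cells was 18.9 CPM on 10 UMIs in vehicle and 6.55 on 22 in takinib, and in B-like cells 19.7 on 11 and 3.44 on 13, beside 38.4 CPM in the vehicle barcodes of 1 to 99 UMIs. Neutrophil-like takinib cells, the most numerous class, had between 0.150 and 2.47 CPM of the 6 genes. Pdgfra was detected in 0.390% of them at a median depth of 1778 UMIs. Pdgfa, with 3 UMIs in vehicle and 66 in takinib, was the 1 member with at least 50 UMIs in a library of the class. It was past 2-fold lower (-1.85, interval -3.46 to 0.46), as were 38.9% of the 9323 genes compared there, with 7.44% higher.

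Vehicle cells of different sex, and so of different animals, differed in the same genes. Only vehicle cells with Xist or Y-linked UMIs, and not both, were assigned a sex, and the rest were left out. In the Cdkn2a-led cluster these were 131 female and 534 male cells of 1101, set beside all 832 takinib cells. The female cells had 229 CPM of Pdgfb and the male cells 82.2, beside 39.4 in takinib. Female over male was a 2.79-fold difference (log2 1.48, interval 1.22 to 1.73). Pdgfc was 143 CPM in the female and 60.9 in the male cells, and 36.4 in takinib. Pdgfd was 19.1 and 4.78 CPM on 17 and 20 UMIs, and the takinib level of 11.1 lay between them. Against female cells alone the takinib ratio was -0.79, with an interval of -1.53 to 0.04 that holds 0. Pdgfa was close in both sexes, at 175 and 192 CPM, and both stood above the 67.6 of takinib. Pdgfra, at 2.24 and 1.67 CPM on 2 and 7 UMIs, was under the takinib 12.8 in both. In fibroblast-like cells Pdgfra was 246 CPM in female and 189 in male cells with 354 in takinib, and Pdgfrb was 354 and 245 CPM with 125 in takinib. Endothelial Pdgfb was 119 CPM in female and 246 in male cells, with 147 in takinib. In macrophage-like cells Pdgfa was 23.9 CPM in 547 female and 41.3 in 1363 male cells, with 22.7 in takinib. With 1 library a treatment and an unstated number of mice, animal and treatment cannot be told apart for any gene, wherever takinib lay relative to the sexes.

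**Figure D5:**
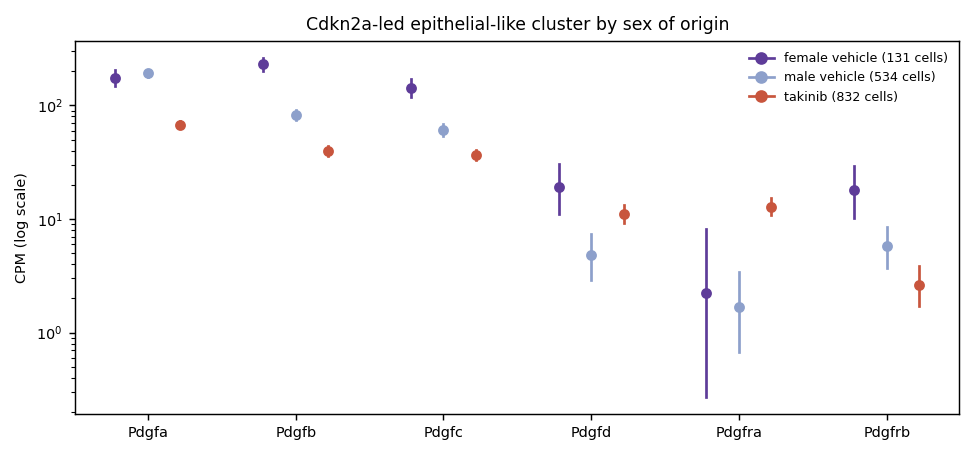
Level of the PDGF genes (CPM, log scale) in the Cdkn2a-led epithelial-like cluster, for vehicle cells with Xist UMIs only (female, 131 cells), vehicle cells with Y-linked UMIs only (male, 534 cells) and takinib cells (832), with exact 95% Poisson intervals that cover counting error only. Takinib lies below both vehicle groups for Pdgfa, Pdgfb, Pdgfc and Pdgfrb, between them for Pdgfd, and above both for Pdgfra.

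Genes around the PDGF receptors were read from 4 lists, of which values are given for the genes with the highest and lowest ratios. The first holds 10 proteins that mature or bind PDGF. In fibroblast-like cells 7 of them had enough counts, 4 with a ratio above 0 and 3 below, with a median of 0.01 where all genes had -0.15 and 38.8% of them were above 0. With more of the Dcn-led cells in the class, under 5 alternatives, that median was between -0.95 and -0.65, so its place above the median of all genes was not stable. Plat, tissue plasminogen activator, stood at 405 and 127 CPM (-1.67), and Pcsk5, a proprotein convertase, at 189 and 260 CPM (0.46). In epithelial-like cells 2 of 9 were above 0 with a median of -0.31 (all genes -0.14, with 40.1% above 0). Nrp1, a co-receptor, had -1.10 and Plat -0.98 there, and Furin, a convertase of the A and B chains, 0.01. Endothelial Nrp1 went from 344 to 142 CPM (-1.27).

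Signalling proteins that dock on or follow the receptors had medians close to those of all genes. Of 19, 6 of 17 were above 0 in fibroblast-like cells (median -0.07) and 7 of 19 in epithelial-like cells (median -0.17). The lowest were Rasa1, a Ras inhibitor, at 68.7 and 22.1 CPM in fibroblast-like cells (-1.64), and Plcg1, a phospholipase, at 28.8 and 15.2 in epithelial-like cells (-0.92). The receptor phosphatase gene Ptprj had the highest ratio in both, 0.33 and 0.22.

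Genes that respond to ERK, a kinase downstream of both receptors, split into opposite directions. In fibroblast-like cells 2 of 9 were above 0 (median -0.72), with Etv4 at 26.0 and 3.69 CPM (-2.82) and Dusp6 at 38.5 and 9.22 (-2.06) beside Egr1 at 96.1 and 326 (1.76) and Ier3 at 98.9 and 361 (1.87). By 2-fold, 3 of the 9 were lower and 2 higher, where 10.3% and 2.82% of all genes in the class were. In epithelial-like cells 5 of 16 were above 0 (median -0.31), with Etv4 and Epha2 at -1.06 each and Egr1 at 1.99. The fibroblast median was above 0 under 3 alternatives, given in the closing section.

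Kinases related to the PDGF receptors, the class III family, and their ligands numbered 7. In fibroblast-like cells 1 of 4 was above 0 (median -0.63), with Il34, a ligand of the macrophage receptor Csf1r, at 34.8 and 3.69 CPM (-3.24) and Kitl at 26.0 and 11.1 CPM (-1.23). That median was between -0.48 and 0.20 over 10 alternatives. In epithelial-like cells 2 of 5 were above 0 (median -0.13), with Il34 at 28.6 and 9.62 CPM (-1.57) and Csf1, the other Csf1r ligand, at 14.97 and 28.1 (0.91). The epithelial median was 0.99 after thinning and 0.52 with female vehicle cells, so its direction turned.

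Genes with profiles most like each PDGF gene were ranked by the Pearson correlation of log2(CPM plus 10) over 17 combinations of class and library, among 14959 genes. The points share 2 libraries, so the values describe likeness only. Pdgfrb was most like Ednra, an endothelin receptor gene, at r = 0.99 (Spearman 0.55), and Kcne4 was also among its nearest genes. Pdgfra was most like Upk1b at r = 0.99 (Spearman 0.46), then A2m and Gjb5. Kifc3, Nicn1 and Aamp followed Pdgfa (r = 0.95 for the first), and Cracr2b, Pkp4 and Dock4 followed Pdgfb (0.95). Tmem45a, Arhgef19 and Gm47163 were nearest to Pdgfc (0.96), and Dok4, Mdfi and Eva1a to Pdgfd (0.96). Between members, the highest value was 0.68 for Pdgfb with Pdgfd, and that of Pdgfra with Pdgfrb was 0.60.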

How the data were processed

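Single-cell RNA was captured from digested KPPC tumours in 1 vehicle and 1 takinib library, grouped by the labels. The authors deposited raw UMI counts per gene and barcode, made with Cell Ranger 4 for vehicle and cellranger-6.1.1 for takinib per the file headers. The submitters' processing notes name Cell Ranger 2.1.1, STAR 2.0.4b, featureCounts 1.45 and mm10 instead. The chemistry and annotation are not given in the sources used here. The vehicle matrix lists 704261 barcodes (80850334 UMIs) down to 0 UMIs, and the takinib matrix 34158 (139292875 UMIs) with at least 500, so barcodes were filtered differently before deposit.

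Cells with at least 1000 UMIs, 500 genes and at most 20% mitochondrial UMIs were kept (9872 and 26790). Scrublet marked 314 vehicle cells, which were removed, but 1 takinib cell (0.00373%), under the 0.5% taken as the least for a working caller, so the 6% with the highest scores, 1607 cells, were removed there. Both libraries were clustered together in scanpy 1.11.5 (2000 variable genes without the 6 PDGF genes, 30 components, 15 neighbours, Leiden resolution 1, igraph 0.11.9, seed 1). Clusters were named from 19 marker lists, needing 3 markers in at least 10% of cells. A cluster was left without a name if the runner-up class reached 0.75 of the top score, or if its 10 leading genes held more markers of another class. Names rebuilt in this way may differ from the authors' own.

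Counts were summed per class and library and scaled to CPM, and ratios carry no pseudocount. A difference was called at 2-fold with at least 50 counts in a library, in classes of at least 100 cells in each. A count of 0 was given a limit of 3 counts. No test was run, since each group is 1 library and cells are not replicates. For thinning, each kept cell was reduced to 1000 UMIs, which left none out. Sex of origin was read from Xist and 4 Y-linked genes. The scripts were tested on simulated data. The PDGF genes, lists and settings were chosen with earlier results of these data known. Named list genes are the 2 highest and 2 lowest ratios of a list in a class, and like genes the 3 highest correlations, of which 1 for Pdgfrb is not reported here. The promoters of Pdgfa, Pdgfb, Pdgfc and Pdgfrb are not printed. Alternatives covered the filters, doublets, scaling, depth, clustering and sex of origin.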

Additional observations from a re-analysis of the deposited data

How the results depend on the processing

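Of the 72 ratios over all kept cells that were recomputed under 12 alternatives, none changed direction and 35 moved beyond their counting interval. Of 291 ratios in classes, 208 were counted as the same, 74 as moved and 9 as reversed. Of 96 list medians, 85 were counted as the same, 8 as moved and 3 as reversed. The reversed counts do not cover every change of sign. More than 3 list medians changed sign, among the maturation, ERK-responsive and class III lists. Pdgfc in fibroblast-like cells, at -0.25 in the main setting, also reached 0.27 under an alternative. Of 54 vehicle levels 17 moved. The male vehicle cells, the removal of perivascular-like cells and the union with the Dcn-led cluster were chosen after seeing the data.

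Over all kept cells, the stricter limit of 2000 UMIs and 1000 genes gave -1.91 for Pdgfa, -2.13 for Pdgfb, -0.76 for Pdgfc, -0.20 for Pdgfd, -0.48 for Pdgfra and -4.37 for Pdgfrb. In the same order, a pseudocount of 10 CPM gave -1.69, -1.58, -0.59, -0.12, -0.42 and -2.77, a shift of the median gene to 0 gave -1.75, -2.01, -0.64, -0.19, -0.41 and -4.25, thinning to 1000 UMIs gave -2.79, -3.15, -1.38, -1.32, -1.51 and -5.11, and female vehicle cells alone gave -1.74, -2.56, -1.82, -1.09, -1.33 and -4.14. Male vehicle cells alone gave -2.33 for Pdgfa and -0.89 for Pdgfd. A limit of 10% mitochondrial UMIs gave -2.19 for Pdgfa, and leaving out perivascular-like cells gave -1.61 for Pdgfa and -2.64 for Pdgfrb.

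In fibroblast-like cells the ratios for Pdgfra, Pdgfrb and the median of the maturation list were 0.19, -1.64 and -0.83 with no doublets removed, 0.27, -1.74 and -0.72 with 6% removed in each library, 0.24, -1.66 and -0.65 at resolution 0.5, 0.058, -2.07 and -0.95 with each library clustered alone, and 0.23, -1.66 and -0.65 in the union with the Dcn-led cluster. Under each of these 263 to 382 of the 382 Dcn-led cells were counted in the class. Female vehicle cells gave -1.50 for Pdgfrb. The ERK-responsive median was 1.77 after thinning, 0.77 with each library clustered alone and 0.68 with female vehicle cells, and the cause was not tested.

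In epithelial-like cells the 6% removal with its new clustering gave 0.34 for Pdgfa and 0.70 for Pdgfc. Of the 1933 Cdkn2a-led cells, 63 were then named in the class. Pdgfa was -1.33 at 10% mitochondrial UMIs, -1.05 with the pseudocount, -1.04 after the median shift and -1.31 with male vehicle cells. Pdgfc was -0.39 after thinning, -1.60 with female and -0.41 with male vehicle cells. Thinning gave -0.54 for the ERK-responsive median and 0.99 for the class III median, which was 0.52 with female vehicle cells. Pdgfd was -0.18, and -0.79 in the Cdkn2a-led cluster, with female vehicle cells. Pdgfra was -1.24 with each library clustered alone, and Pdgfrb 0.40 in the thinned Cdkn2a-led cluster. In endothelial-like cells Pdgfa was 0.39 after thinning and 0.52 with female vehicle cells, and Pdgfb -0.28 and 0.30.

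Vehicle CPM of Pdgfb in endothelial-like cells was 262 at 10% mitochondrial UMIs, 203 without doublet removal, 199.7 after thinning and 119 in female cells. Pdgfra in fibroblast-like cells was 187 at 10% mitochondrial UMIs, 268 after thinning, 246 in female and 189 in male cells. Pdgfrb in perivascular-like cells was 1156 at 10% mitochondrial UMIs, 1128 without doublet removal, 1298 after thinning and 921 in female cells, and Pdgfa there was 543 without doublet removal and 555 after thinning. Pdgfc in epithelial-like cells was 22.1 with 6% removed, 109 in female and 47.8 in male cells. After thinning the share of vehicle cells with a UMI went from 76.2% to 40.8% for Pdgfa and from 92.6% to 70.7% for Pdgfrb in perivascular-like cells, from 34.7% to 16.5% for Pdgfb and 6.19% to 2.11% for Pdgfd in endothelial-like cells, from 23.1% to 4.92% for Pdgfc in epithelial-like cells, and from 47.1% to 21.6% for Pdgfra in fibroblast-like cells. Takinib fibroblast-like Pdgfa and Pdgfd rest on under 10 UMIs from 100 cells. No paired analysis was possible because each group has 1 library.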

Other observations

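A takinib cluster of 121 cells led by Vcam1, Cd5l and Slc40a1, genes of iron-recycling macrophages, stayed unnamed because erythroid markers scored close to macrophage markers. It held 59.0 CPM of Pdgfc (interval 40.3 to 83.2) and 40.5 CPM of Pdgfb (interval 25.4 to 61.4), both above the takinib macrophage-like levels of 8.68 and 8.44 CPM, and no vehicle cell fell in it. Another unnamed cluster, led by the goblet-cell genes Spink4 and Muc2 with Mptx1, had 27.9 CPM of Pdgfa in vehicle and 30.2 in takinib. The 225 takinib epithelial-like cells led by Gkn2 had 21.8 CPM of Pdgfa and 10.9 of Pdgfra, the latter on 7 UMIs.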
